A study of Drosophila melanogaster with 23 samples.

Results

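The fly genes related to the mammalian reprogramming factors are described here in midgut RNA. They are the POU genes nub, pdm2 and vvl (related to Oct4), the Sox gene SoxN (related to Sox2), the Klf genes luna, dar1 and cbt (related to Klf4) and Myc. These 8 of 17714 gene IDs were chosen by family from FlyBase symbols and not by their levels, although earlier results of these data were known. RNA-seq was made from 23 libraries in 8 groups. In the ubiquitous expression model the armGal4 driver, and in the ISC-restricted expression model the esgGal4 driver, was held back by tubGal80ts, a temperature-sensitive GAL80. armadillo, the gene of the first driver, is active in most tissues, and escargot, that of the second, in ISCs and their daughters, the enteroblasts. Each driver was crossed to 4 lines. OKSM-Sen flies carried UAS-OKSM and UAS-Sen together, OKSM flies UAS-OKSM and Sen flies UAS-Sen, and WT flies carried UAS-TdTomato, a red fluorescent protein. There were 3 libraries in a group, but 2 (replicates 2 and 3) for ubiquitous Sen. By the study expression was constant and midguts were dissected, although the labels name the tissue of the escargot driver samples intestinal stem cells. The study's crosses write a UAS-GFP transgene with both drivers. Its list of fly lines gives UAS-GFP for the esgGal4 stock but not for the armGal4 stock. The esgGal4 stock in the study's list of fly lines also holds UAS-dCas9.VPR. None of the sources used here gives the age of the flies.

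POU, Sox and Klf proteins bind DNA and set the identity of cells, and in mammals Oct4, Sox2, Klf4 and Myc together can return differentiated cells to a pluripotent state. In the fly each family has several members with separate jobs in the nervous system, the tracheae, the wing and the gut. Fly Myc drives cell growth, ribosome production and the division of intestinal stem cells (ISCs), whereas nub marks the absorptive enterocytes that make up most of the gut lining. The UAS-OKSM transgene carries human factors. The deposited tables list fly gene IDs alone, so that the values below are those of the flies' own genes and do not measure the transgene.

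Total counts ran from 33438269 to 46324866 per library in the ubiquitous model and from 14626936 to 18974759 in the ISC model, so low genes were measured with more counts in the ubiquitous libraries. Because driver and depth both separate the models, they cannot be told apart in a comparison of levels between models. No source says that replicates came from separate cohorts of flies. The p-values then cover the spread among these libraries alone, which may be technical. By the labels, ISC Sen replicate 3 and ISC OKSM-Sen replicate 3 once stood under each other's annotation, later corrected. Results that rest on this pair are also given without it. The UAS-Sen peptide is derived from a fly forkhead-family protein, named as foxo in one place of the study and as Fork Head in another. Neither gene set the Sen libraries apart from all others. By the study's methods the peptide is a short stretch of the protein, so counts of the whole gene cannot tell whether UAS-Sen was expressed. In the ISC model fkh had 95.1 to 161 CPM (reads scaled to a library of 1000000) in OKSM-Sen, 80.9 to 110 in OKSM, 111 to 153 in Sen and 93.7 to 115 in WT libraries. For foxo the ranges were 88.7 to 90.8 CPM in OKSM-Sen, 75.6 to 83.8 in OKSM, 66.6 to 94.8 in Sen and 134 to 178 in WT libraries.

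The members covered a wide range of abundance. Per transcript length, the median over the 23 libraries was 79.8 TPM (transcripts per 1000000 transcripts) for nub, 42.9 TPM for cbt and 26.8 TPM for Myc. It was 6.78 TPM for pdm2, 1.69 TPM for luna, 0.52 TPM for vvl and 0.16 TPM for dar1. SoxN, a nervous system gene, was listed at 0 in 12 of 23 libraries and reached 0.06 TPM at most. The ranges of cbt and Myc overlapped, from 29.4 to 75.8 TPM and from 15.3 to 42.0 TPM, and those of nub and cbt overlapped as well, nub running from 42.9 to 112 TPM. In the plot of levels per length these 3 genes stand above the others in every library.

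**Figure D1:**
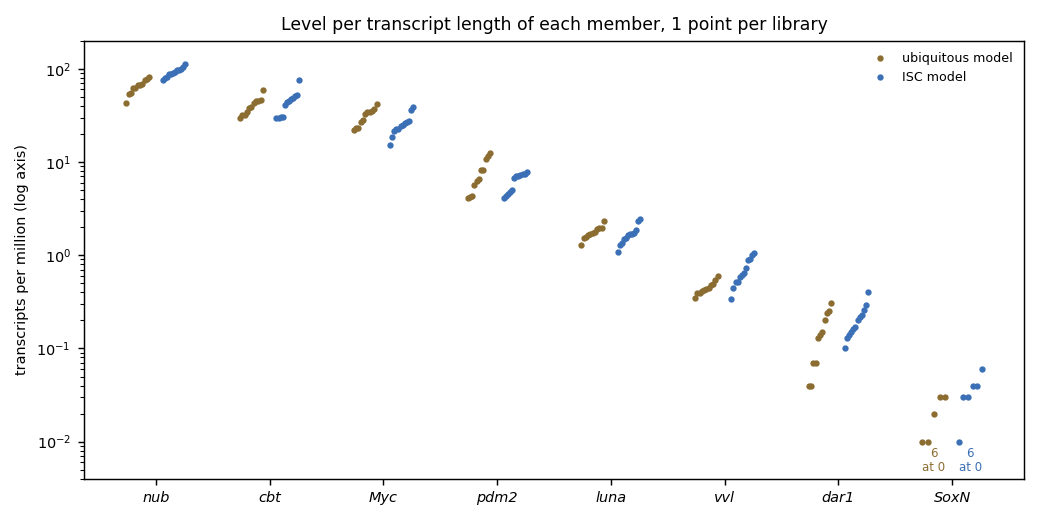
TPM on a log axis, as deposited, for each of the 8 members, with 1 point for each of the 11 libraries of the ubiquitous model (brown) and the 12 of the ISC model (blue), sorted by value within a model. nub, cbt and Myc had 15.3 TPM or more in every library, whereas dar1 reached 0.4 TPM at most and SoxN was at 0 in 6 libraries of each model.

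Differences between constructs were tested within each model, over all genes with a mean of at least 10 reads (9637 genes in the ubiquitous and 9374 in the ISC model), with edgeR's quasi-likelihood test. A gene was called at a Benjamini-Hochberg adjusted p under 0.10. Of the 8 members 7 were tested in both models, and SoxN was under the minimum in both. CPM values below are scaled by TMM factors within a model, so that levels are not on 1 scale between the models. All comparisons with WT in a model share the same 3 WT libraries.

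In the ubiquitous model none of the 7 tested members was called in OKSM, Sen or OKSM-Sen against WT, by edgeR or by DESeq2. Of all genes tested, edgeR called 1.09% for OKSM, 2.48% for Sen and 1.16% for OKSM-Sen, so that a count of 0 among 7 genes was close to the background. At an unadjusted p under 0.05 the test held 0 members for OKSM, 2 for Sen (nub and Myc) and 1 for OKSM-Sen (pdm2). Over the 4 conditions edgeR called 0 members, beside 2.61% of all genes, with 1 member (pdm2) under an unadjusted p of 0.05, and DESeq2 called that gene alone.

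In the ISC model 2 of the 7 tested members were called in OKSM (cbt and Myc, both lower), 6 in Sen (nub and luna higher, vvl, dar1, cbt and Myc lower) and 3 in OKSM-Sen (dar1, cbt and Myc, all lower). The background in this model was high, with 32.3% of all genes called for OKSM, 36.5% for Sen and 29.0% for OKSM-Sen. The counts of 2 and 3 members were close to that background, which corresponds to 2 or 3 genes of 7, and the 6 members called in Sen lay above it. That count was 3 (luna, cbt and Myc), close to the background, without Sen replicate 1 or without WT replicate 1. Without the pair of libraries with exchanged annotation, the counts were 2, 4 and 1, with nub, luna, cbt and Myc called in Sen and Myc in OKSM-Sen. Over the 4 conditions 4 members were called (luna, dar1, cbt and Myc), beside 35.7% of all genes, and 2 (cbt and Myc) without that pair. DESeq2 called nub, luna, cbt and Myc in this test. The call of dar1 was lost without the filter on low counts and with 9 of the 12 libraries left out in turn.

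**Figure D2:**
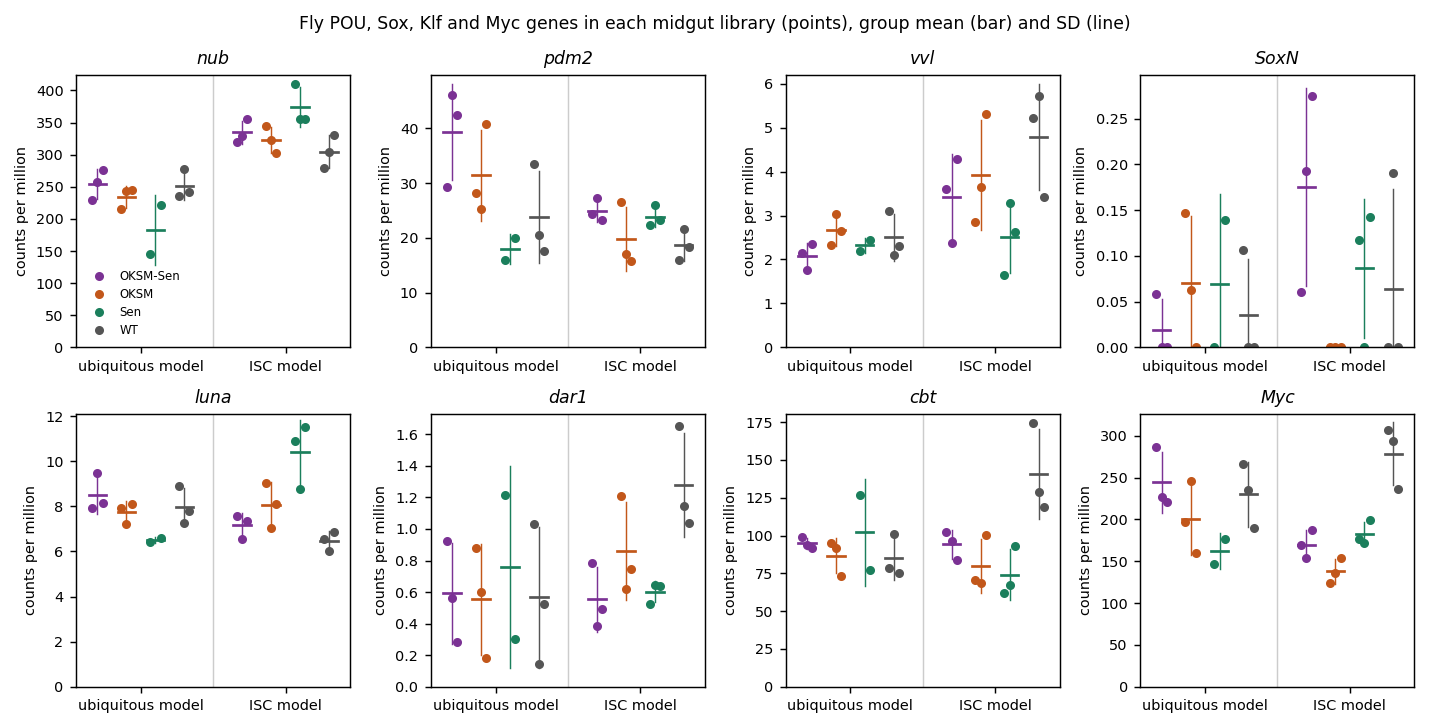
CPM of each member in every library (points), with the group mean (horizontal bar) and SD (vertical line), in the order OKSM-Sen, OKSM, Sen and WT within each model; each panel has its own axis from 0. The WT libraries of the ISC model lie above all those of the other constructs for Myc and cbt, while luna is highest in ISC Sen.

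Myc (FBgn0262656, on X from 3373159 to 3391697 of BDGP6.54) was lower than WT with every construct of the ISC model. Its level in the ISC model was 169, 154 and 187 CPM in OKSM-Sen, 124, 136 and 154 CPM in OKSM, and 177, 172 and 199 CPM in Sen libraries, against 307, 293 and 236 CPM in WT libraries. No library of the 3 constructs reached the lowest WT library. Myc fell by 1.02 on the log2 scale in OKSM (SE 0.12, adjusted p = 0.00072), by 0.71 in OKSM-Sen (SE 0.12, adjusted p = 0.00328) and by 0.61 in Sen (SE 0.12, adjusted p = 0.00464). OKSM had the lowest mean, 137.9 ± 14.8 CPM (SD, n = 3), followed by OKSM-Sen with 170.0 ± 16.9, Sen with 182.5 ± 14.7 and WT with 278.8 ± 37.8 CPM. Of the neighbours in this order, Sen and WT differed, whereas OKSM-Sen was not called against OKSM (adjusted p = 0.404) or Sen (adjusted p = 0.816). Myc was called against WT in each construct whichever library was left out.

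The log2 changes of Myc against WT in OKSM and Sen did not add up to that in OKSM-Sen in the ISC model. All 3 changes share the same WT libraries, so an offset of those libraries alone cannot be told apart from an interaction. OKSM-Sen was higher by 0.91 (SE 0.17) on the log2 scale than the sum of both single changes gives, at an interaction adjusted p of 0.01. The interaction was called for 21.9% of all genes in this model and for 3 of 7 members: Myc, cbt with 1.17 (SE 0.29, adjusted p = 0.0271) and luna with -0.85 (SE 0.20, adjusted p = 0.0228). Each of the 3 stayed called whichever single library was left out, while the luna interaction reached an adjusted p of 0.11 with a value of -0.79 without the pair of exchanged annotation. The interaction in the ubiquitous model was called for 0 members and 1.06% of all genes, with 3 members (nub, luna and Myc) under an unadjusted p of 0.05.

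With the ubiquitous driver Myc had 287, 227 and 220.4 CPM in OKSM-Sen, 196, 246 and 160.4 CPM in OKSM, and 147 and 177 CPM in Sen libraries, against 266, 235 and 189 CPM in WT libraries. Both Sen libraries lay under the lowest WT library, whereas OKSM and OKSM-Sen overlapped with WT. The log2 change of Myc was -0.50 (SE 0.21, adjusted p = 0.326) for Sen, -0.19 (SE 0.19) for OKSM and 0.09 (SE 0.19) for OKSM-Sen, none of them called. The difference between models was tested in a fit of all 23 libraries. The OKSM change of Myc was lower by 0.85 (SE 0.23, adjusted p = 0.076) on the log2 scale in the ISC than in the ubiquitous model, and this call was lost (adjusted p from 0.101 to 0.19) without any one of 10 of the 23 libraries, and without the pair of exchanged annotation (-0.84, adjusted p = 0.115). The same difference was called for 4.12% of all genes in OKSM. For Sen it was -0.12 (SE 0.25, adjusted p = 0.775) and for OKSM-Sen -0.82 (SE 0.23, adjusted p = 0.112), neither of them called. Differences for OKSM-Sen were called for 1.46% of all genes and 0 members, by an unadjusted p under 0.05 for cbt and Myc, and by DESeq2 for Myc (-0.80, adjusted p = 0.0338).

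**Figure D3:**
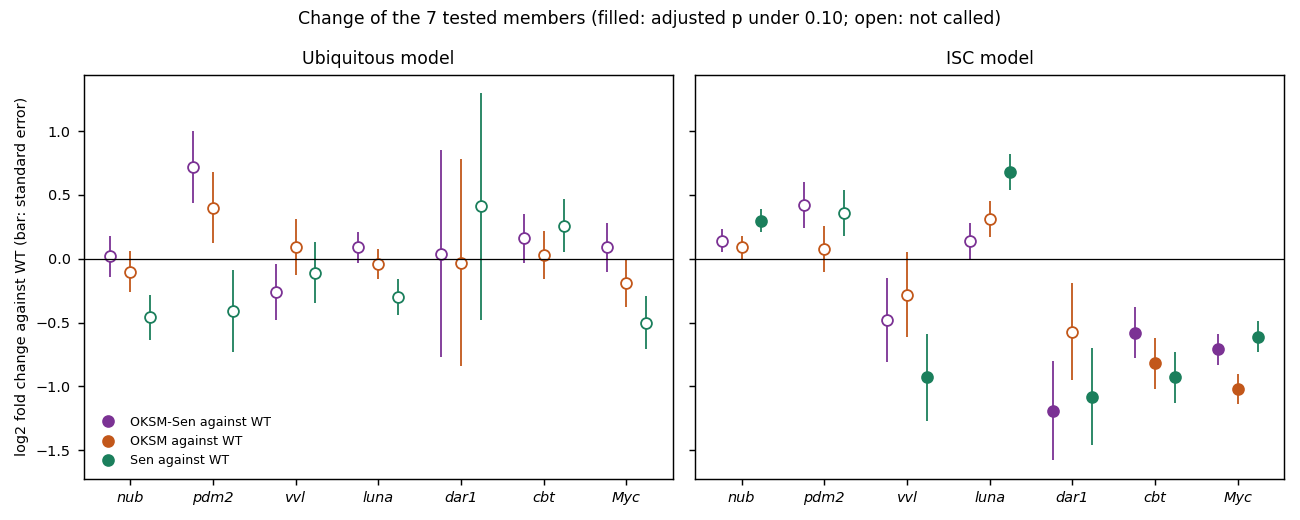
Log2 fold change against WT of the 7 tested members (points) with its standard error (bars), for OKSM-Sen, OKSM and Sen from left to right within each gene, in the ubiquitous (left) and the ISC model (right). Filled points had an adjusted p under 0.10: none of the 21 comparisons in the ubiquitous model and 11 of the 21 in the ISC model.

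Myc acts as a pair with Max, and the fly's Max network also holds the repressor Mnt and the sugar-sensing pair of Mondo and bigmax. With ago, which marks Myc for breakdown, puf, which removes ubiquitin, and the helicases pont and rept they made a list of 8 genes, all tested. The list was chosen with earlier results of these data known, so its counts are a description. Of these genes, 5 were called lower and 0 higher in ISC OKSM, where 15.0% of all genes were lower and 17.3% higher. There were 3 lower and 1 higher in ISC Sen, 2 calls in all without the pair of exchanged annotation, and 2 in each direction in ISC OKSM-Sen. All genes were called lower and higher in 18.3% and 18.2% of cases in Sen and in 13.3% and 15.7% in OKSM-Sen, so that the 2 and 2 of 8 in OKSM-Sen were near the background. The list's medians for OKSM, Sen and OKSM-Sen were -0.36, 0.02 and 0.01 on the log2 scale, beside 0.01, -0.02 and 0.02 over all genes. Max averaged 24.4 ± 0.5 CPM in OKSM-Sen, 22.6 ± 1.8 CPM in OKSM and 24.2 ± 1.6 CPM in Sen against 32.4 ± 3.3 CPM in WT libraries (SD, n = 3 each), and fell with each construct, by 0.41, 0.51 and 0.42 on the log2 scale (SE 0.09, 0.10 and 0.09). bigmax fell with each construct too, by 0.72 in OKSM-Sen, 0.72 in OKSM and 0.47 in Sen (SE 0.14 each). puf fell by 0.44 in OKSM and by 0.35 in Sen, and had a log2 change of -0.20 in OKSM-Sen that was not called. Mondo moved in both directions: it fell by 0.63 in OKSM (SE 0.20) and rose by 0.79 in OKSM-Sen (SE 0.20) and 0.59 in Sen (SE 0.20). By edgeR the list held 1 call in the ubiquitous model, Mondo higher by 0.66 (SE 0.13, adjusted p = 0.0649) in OKSM-Sen. It was lost with 6 of the 11 libraries left out in turn, with the replicate block and in the fit of 2 constructs, and DESeq2 called 1 gene of the list in ubiquitous Sen, where edgeR called 0.

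A further list held 16 genes for ribosome production that Myc is known to raise in the fly, such as the nucleolar proteins Fib, Nop56 and Nopp140 and subunits of RNA polymerase I. All 16 were tested. This list too was chosen with earlier results of these data known, so its counts are a description and not an independent test. In ISC OKSM 12 of them fell, against 15.0% of all genes. For Sen 11 fell, against 18.3%, and for OKSM-Sen 15, against 13.3%, and 0 rose in any ISC construct. Their median log2 change was -0.49 for OKSM, -0.34 for Sen and -0.55 for OKSM-Sen. Non1, a GTPase of the nucleolus, had 229 to 332 CPM in OKSM, 268 to 352 CPM in OKSM-Sen and 297 to 394 CPM in Sen against 543 to 709 CPM in WT libraries. Its log2 change was -1.11 (SE 0.17) in OKSM, -1.02 (SE 0.17) in OKSM-Sen and -0.89 (SE 0.17) in Sen. Nopp140 fell by 0.76, 0.58 and 0.48 in OKSM, OKSM-Sen and Sen (SE 0.12 each), and the nucleostemin relative Ns1 by 0.48, 0.58 and 0.47 (SE 0.08 each). Polr1A, the large subunit of RNA polymerase I, fell by 0.56, 0.66 and 0.53 (SE 0.14 each). The count for Sen was 5 in the fit of 2 constructs and 5 without the pair of exchanged annotation. It was 5 or 6 without any one of Sen replicate 2, Sen replicate 3, WT replicate 1 and WT replicate 2.

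With the ubiquitous driver none of these 16 genes was called by edgeR or DESeq2 in any construct against WT, with 1 under an unadjusted p of 0.05 for OKSM and 0 for the other two. Their median log2 change was -0.19 for OKSM, 0.24 for Sen and -0.02 for OKSM-Sen. For Sen the median was above 0 while the log2 change of Myc was below 0 in the same libraries, neither with a call. The Sen libraries did not share a direction for this list. Its sum ran from 1280 to 1980 CPM in Sen, beyond both ends of the 1360 to 1680 CPM in WT libraries. In bulk RNA fewer cells of a type and less RNA per cell cannot be told apart, and this holds for every level in these data.

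**Figure D4:**
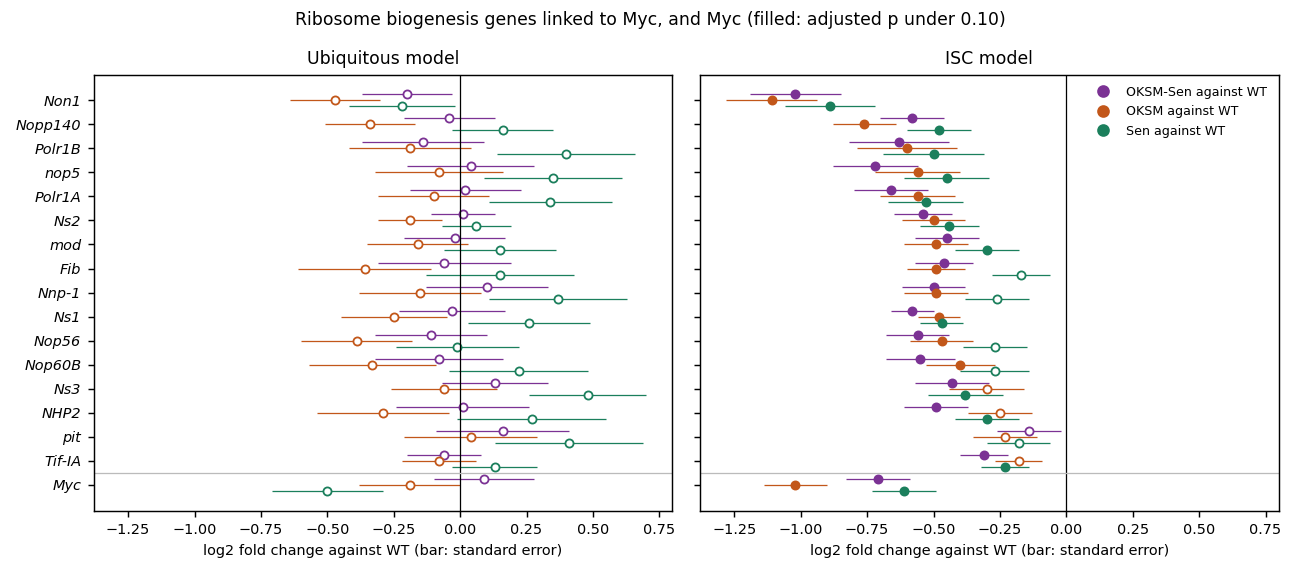
Log2 fold change against WT (x axis) with its standard error for the 16 genes of ribosome production and, under the line, for Myc, in OKSM-Sen (top), OKSM and Sen within each gene. In the ISC model all values lie below 0 and 12 to 15 genes of OKSM and OKSM-Sen are filled (adjusted p under 0.10), while in the ubiquitous model none is filled.

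Among the Klf genes, cbt was the second member that was lower than WT with every construct of the ISC model. cbt (FBgn0043364, on 2L from 476446 to 479688) encodes Cabut, a zinc finger factor that in the fly is a target of Mondo and bigmax after sugar feeding. Libraries of the ISC model had 103, 96.3 and 84.0 CPM in OKSM-Sen, 70.5, 68.3 and 100.4 CPM of cbt in OKSM, and 62.1, 67.1 and 93.3 CPM in Sen libraries, against 175, 129 and 119 CPM in WT libraries. All 9 libraries with a construct lay under the lowest WT library. cbt fell by 0.93 on the log2 scale in Sen (SE 0.20, adjusted p = 0.00805), by 0.82 in OKSM (SE 0.20, adjusted p = 0.0175) and by 0.58 in OKSM-Sen (SE 0.20, adjusted p = 0.0689). The calls in OKSM and Sen held whichever library was left out. The call in OKSM-Sen was lost without any one of the 3 OKSM-Sen libraries or of WT replicates 1 and 2, with values from -0.39 to -0.64, and without the pair of exchanged annotation (-0.50, adjusted p = 0.154).

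With the ubiquitous driver cbt had 98.9, 94.0 and 91.8 CPM in OKSM-Sen, 95.1, 91.9 and 73.4 CPM in OKSM, and 127 and 77.0 CPM in Sen libraries, against 78.7, 101 and 75.0 CPM in WT libraries. Each group overlapped with WT, and the log2 changes were 0.16 (SE 0.19), 0.03 (SE 0.19) and 0.26 (SE 0.21) in OKSM-Sen, OKSM and Sen. The Sen change of cbt was lower by 1.20 (SE 0.31, adjusted p = 0.0122) in the ISC than in the ubiquitous model, beside 27.3% of all genes with a called difference for Sen. Without ubiquitous Sen replicate 2, the library with 127 CPM, the difference was -0.80 and was not called (adjusted p = 0.12).

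luna, related to mammalian Klf6 and Klf7, was the Klf gene that rose. It lies on 2R from 10977956 to 11116378 (FBgn0040765). ISC libraries had 7.58, 6.54 and 7.36 CPM of luna in OKSM-Sen, 9.04, 7.02 and 8.10 CPM in OKSM, and 10.9, 8.79 and 11.5 CPM in Sen libraries, against 6.55, 6.03 and 6.86 CPM in WT libraries. All Sen and OKSM libraries lay above WT, whereas OKSM-Sen overlapped with it. luna rose by 0.68 in Sen (SE 0.14, adjusted p = 0.00572) on the log2 scale, a call that held whichever library was left out. Its change of 0.31 in OKSM (SE 0.14, adjusted p = 0.138) and of 0.14 in OKSM-Sen (SE 0.14, adjusted p = 0.513) did not pass the test. Without OKSM replicate 2 the change in OKSM was 0.40 and was called (adjusted p = 0.0944). The ubiquitous Sen libraries had luna at 6.40 and 6.60 CPM, under all 3 WT libraries at 8.91, 7.27 and 7.77 CPM, with a log2 change of -0.30 (SE 0.14, adjusted p = 0.371). The Sen changes of both models differed by 0.96 (SE 0.19, adjusted p = 0.00223), the change in the ISC model being the higher.

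dar1, a Klf gene known for the growth of dendrites in fly neurons, was measured with few counts. It lies on 3L from 3626352 to 3653442 (FBgn0263239). ISC libraries gave dar1 13, 6 and 9 expected counts in OKSM-Sen, 17, 9 and 12 in OKSM, and 9, 11 and 9 in Sen libraries, against 26, 18 and 17 in WT libraries. The OKSM-Sen and Sen libraries lay under all WT libraries. dar1 fell by 1.19 in OKSM-Sen (SE 0.39, adjusted p = 0.0506) and by 1.08 in Sen (SE 0.38, adjusted p = 0.0587), and had a log2 change of -0.57 (SE 0.38, adjusted p = 0.294) in OKSM. The call in OKSM-Sen was lost without OKSM-Sen replicate 2 (-1.03, adjusted p = 0.123), OKSM-Sen replicate 3 (-1.12, adjusted p = 0.144) or WT replicate 1 (-0.97, adjusted p = 0.167). The call in Sen was lost without any one of the 3 Sen libraries or WT replicate 1, with values from -0.85 to -1.13. Without the pair of exchanged annotation neither was called, at -1.12 both in OKSM-Sen (adjusted p = 0.179) and in Sen (adjusted p = 0.149). Ubiquitous libraries ran from 5 to 43 expected counts of dar1 and the SE of each change was 0.81 or more on the log2 scale, so that a change of the size seen in the ISC model was not detectable there. Of 6 other Klf and Sp genes 1 was tested, Spps, and it was called in no comparison with WT by edgeR or DESeq2.

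The POU genes nub and pdm2 are neighbours on 2L, from 12587625 to 12628135 (FBgn0085424) and from 12657165 to 12686306 (FBgn0004394). nub encodes Pdm1, the protein by which enterocytes are usually stained. Levels of nub in the ISC model were 319, 329.9 and 355 CPM in OKSM-Sen, 344, 323 and 303 CPM in OKSM, and 411, 356 and 355 CPM in Sen libraries, against 279, 304 and 331 CPM in WT libraries. The Sen libraries lay above all WT libraries, while the other groups overlapped with WT. nub rose by 0.30 in Sen (SE 0.09, adjusted p = 0.0379), the smallest change among the calls, and was not called without Sen replicate 1 (0.23, adjusted p = 0.132) or WT replicate 1 (0.24, adjusted p = 0.134). Ubiquitous libraries had nub at 145 and 221 CPM in Sen libraries, both under the WT libraries at 236, 278 and 242 CPM, with a log2 change of -0.46 (SE 0.18, adjusted p = 0.276). OKSM and OKSM-Sen overlapped with WT there and had changes of -0.10 (SE 0.16) and 0.02 (SE 0.16). The Sen change of nub was higher by 0.74 (SE 0.19, adjusted p = 0.0117) in the ISC than in the ubiquitous model.

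pdm2, a close relative of nub that acts in fly neuroblasts, was not called against WT in either model. Levels of pdm2 in the ISC model were 24.3, 27.4 and 23.3 CPM in OKSM-Sen, 26.5, 17.1 and 15.7 CPM in OKSM, and 22.3, 26.0 and 23.4 CPM in Sen libraries, against 16.0, 21.6 and 18.3 CPM in WT libraries. All OKSM-Sen and Sen libraries lay above the WT libraries, whereas OKSM covered the WT range. The log2 changes were 0.42 in OKSM-Sen (SE 0.18, adjusted p = 0.127), 0.36 in Sen (SE 0.18, adjusted p = 0.17) and 0.08 in OKSM (SE 0.18, adjusted p = 0.772). Without OKSM replicate 1, the OKSM library with 26.5 CPM, the changes in OKSM-Sen (0.42, adjusted p = 0.0327) and Sen (0.36, adjusted p = 0.0486) were called, as was that in OKSM-Sen without OKSM replicate 3 (0.43, adjusted p = 0.0989). Ubiquitous levels of pdm2 were 29.3, 46.1 and 42.5 CPM in OKSM-Sen, 28.1, 25.2 and 40.9 CPM in OKSM, and 16.0 and 19.9 CPM in Sen libraries, against 33.4, 20.5 and 17.6 CPM in WT libraries. All 3 constructs overlapped with WT. The change of 0.72 in OKSM-Sen (SE 0.28, adjusted p = 0.466) was the largest among the members of this model, and OKSM-Sen against Sen gave 1.13 (SE 0.32, adjusted p = 0.161).

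vvl, on 3L from 6790158 to 6794941 (FBgn0086680), is the POU gene of the developing tracheae and nervous system of the fly. Levels of vvl in the ISC model were 3.61, 2.37 and 4.28 CPM in OKSM-Sen, 2.85, 3.65 and 5.30 CPM in OKSM, and 1.64, 3.28 and 2.63 CPM in Sen libraries, against 5.21, 5.72 and 3.43 CPM in WT libraries. Only the Sen libraries all lay under WT, from 28 to 56 expected counts. vvl fell by 0.93 in Sen (SE 0.34, adjusted p = 0.0641), and its changes of -0.48 in OKSM-Sen (SE 0.33) and -0.28 in OKSM (SE 0.33) were not called. The call in Sen was lost without any one of Sen replicates 1 and 3 and WT replicates 1 and 2 (values from -0.69 to -0.96), and without the pair of exchanged annotation (-0.96, adjusted p = 0.147). The 6 tracheal markers in a marker list summed to 27.5 to 33.1 CPM in OKSM-Sen, 24.8 to 36.0 in OKSM and 21.2 to 25.2 in Sen against 41.3 to 41.8 CPM in WT libraries of the ISC model. Of these 6 markers 2 fell in OKSM-Sen, 1 in OKSM and 2 in Sen, beside 13.3%, 15.0% and 18.3% of all genes lower. The 1 of 6 in OKSM was near that background. The part of the markers in the level of vvl was not tested. Ubiquitous levels of vvl ran from 1.77 to 3.10 CPM over all libraries, and its changes lay between -0.26 in OKSM-Sen and 0.09 in OKSM (SE 0.22 each). Of 2 other POU genes pdm3 was tested: it fell by 1.04 (SE 0.36, adjusted p = 0.0536) in Sen of the ISC model and was called in no other comparison with WT.

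SoxN, on 2L from 8825645 to 8829670 (FBgn0029123), had 35 expected counts in all 23 libraries together and 6 at most in one library. It was at 0 in the 3 OKSM libraries of the ISC model, and had 1, 3 and 5 counts in OKSM-Sen and 2, 0 and 2 in Sen against 0, 3 and 0 in WT libraries. A count of 0 allows up to 3 counts in a library, a limit that covers counting error only, and no change can be given at this depth. Fitted without the filter on low counts, SoxN reached an adjusted p of 0.353 at the lowest in the comparisons with WT. Of 7 other Sox genes, a list also chosen with earlier results of these data known, 4 were tested. In the ISC model Sox14, Sox21a and Sox100B rose with each construct (3 of 4) and 0 fell. Of all genes 17.3%, 18.2% and 15.7% were higher in OKSM, Sen and OKSM-Sen. Sox21a, which the gut's progenitors need to differentiate, averaged 31.5 ± 0.6 CPM in OKSM-Sen, 27.4 ± 2.5 CPM in OKSM and 42.0 ± 1.6 CPM in Sen against 14.3 ± 4.9 CPM in WT libraries (SD, n = 3 each). Its log2 changes were 1.13, 0.94 and 1.55 in OKSM-Sen, OKSM and Sen (SE 0.19 each). Sox100B rose by 1.31, 1.13 and 1.49 (SE 0.22 each), and Sox14, an ecdysone-responsive gene, by 0.96, 0.59 and 1.12 (SE 0.13, 0.13 and 0.14). In ubiquitous Sen libraries Sox21a fell by 1.81 (SE 0.42, adjusted p = 0.0915) and Sox100B fell by 1.13 (SE 0.27, adjusted p = 0.0927), and the count of 2 was 0 with 7 of the 11 libraries left out in turn, without the filter and in the fit of 2 constructs, and 1 with RLE factors or the replicate block.

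Comparisons among the 3 constructs held no call of a member in either model. In the ISC model edgeR called 0 members in OKSM-Sen against OKSM, OKSM-Sen against Sen and Sen against OKSM, beside 0.672%, 0.555% and 5.04% of all genes. At an unadjusted p under 0.05 there were 1, 1 and 3 members, among them luna with -0.54 (SE 0.14, adjusted p = 0.191) in OKSM-Sen against Sen and Myc with 0.40 (SE 0.12, adjusted p = 0.12) in Sen against OKSM. The ubiquitous model held 0 called members as well, beside 0.301%, 1.80% and 1.25% of all genes, with 0, 4 and 1 members under an unadjusted p of 0.05. DESeq2 was not run on these pairs. Within each model, the mean levels of a member could therefore be ordered in a few steps alone: in the ISC model the step from WT down to the next group was called for cbt (OKSM-Sen) and Myc (Sen), and no other step between neighbouring groups was.

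The length that the authors' tables give for a gene is weighted by the abundance of its transcripts, and so describes which transcripts were in use. Myc has a short and a long transcript in BDGP6.54, Myc-RA of 3484 and Myc-RB of 9166 bases. The weighted length of Myc ran from 6105 to 6827 bases in the ISC model and from 5531 to 6258 bases in the ubiquitous model, with a single ubiquitous library (WT replicate 1) inside the ISC range. If only these transcripts were present, and had these lengths in the annotation used for counting, the long one made up 46.1% to 58.8% of Myc molecules in the ISC model. In the ubiquitous model it then made up 36.0% to 48.8%. The constructs overlapped with WT in both models, with ISC libraries from 6337 to 6508 bases in OKSM-Sen, 6105 to 6537 in OKSM and 6437 to 6827 in Sen against 6406 to 6547 bases in WT.

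**Figure D5:**
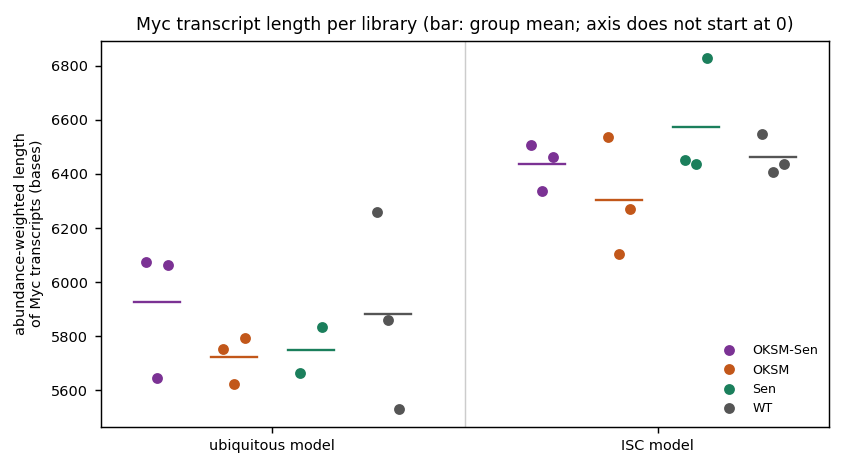
Abundance-weighted length of Myc transcripts in bases (y axis, not from 0) in each library (points) and the mean of each group (bars), for OKSM-Sen, OKSM, Sen and WT in both models. The ISC libraries lie between 6105 and 6827 bases and all but 1 of the ubiquitous libraries below 6105.

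For nub and pdm2 the ranges of weighted length lay apart from those of WT in some constructs of the ISC model. nub was at 3290 to 3298 bases in OKSM-Sen, 3209 to 3253 in OKSM and 3257 to 3401 in Sen against 3123 to 3200.3 bases in WT libraries, with each construct above WT. Its longest transcript is nub-RB of 4497 bases, beside nub-RD of 3267 and nub-RE of 2829 bases, and the products of the long and short transcripts are known to act against each other on immune genes of the fly gut. pdm2 was at 2878 to 3228 bases in OKSM and 3085 to 3135 in Sen against 3345 to 3490.2 bases in WT libraries, and OKSM-Sen, at 3191 to 3386, overlapped with WT. With the ubiquitous driver OKSM-Sen and OKSM overlapped with WT for both genes, and the Sen libraries lay under WT for nub (3077 and 3115 against 3116 to 3256 bases). luna had 3934 to 4491 bases in the ISC and 3761 to 3940.4 bases in the ubiquitous model, and the length of dar1, with a single transcript, was 3526 bases throughout. Ranges also lay apart from WT for cbt in ISC OKSM-Sen, at 2066 to 2069 against 2078 to 2085 bases. The same held for vvl in ubiquitous OKSM, at 4513 to 4710 against 4416 to 4496 bases. These lengths were not tested, and such splits were not counted over all genes.

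The genes whose log2 CPM was most like that of a member over the 23 libraries, after the mean of each model was taken off, are given by Pearson's r among 9195 genes. The libraries share constructs and depth, so r is a description. Myc was most like Ptp99A (0.895), a receptor phosphatase, Edc3 (0.892), of the mRNA decapping complex, and chico (0.858), the insulin receptor substrate. cbt was most like Bap170 (0.869), a subunit of a chromatin remodeller, wech (0.860) and spag (0.849). nub was most like CG18635 (0.897), Cdc50 (0.883) and RabGGTa (0.878), and pdm2 most like brat (0.869), a growth repressor, CG13654 (0.859) and Socs36E (0.818), a feedback inhibitor of JAK/STAT signaling. luna was most like jar (0.839), a myosin, CG12065 (0.819) and Fas2 (0.816), an adhesion protein. dar1 was most like RhoGEF64C (0.861), AhcyL2 (0.854) and qsm (0.851), and vvl, with the weakest likeness, most like FucT6 (0.789), Cyp6a9 (0.755) and CG6689 (0.741). Among the members, the highest r was 0.566 between cbt and Myc and the lowest -0.62 between nub and dar1, with nub and pdm2, the neighbours, at 0.542.

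Markers of gut cell types were measured in the same ISC libraries, where 15.7% of all genes were called higher and 13.3% lower in OKSM-Sen, 17.3% and 15.0% in OKSM, and 18.2% and 18.3% in Sen. Of 8 matched ISC and enteroblast markers, all tested, 5 rose and 1 fell in OKSM-Sen, 3 rose and 1 fell in OKSM and 7 rose and 0 fell in Sen. They summed to 92.6 to 114 CPM in OKSM-Sen, 77.1 to 103 in OKSM and 132 to 143 in Sen against 56.4 to 70.9 CPM in WT libraries. This list holds Sox21a and Sox100B, and esg, the gene of the driver, was not matched to a gene ID. The 11 enterocyte markers summed to 25100 to 41600 CPM in OKSM-Sen, 22300 to 54900 in OKSM and 32100 to 39000 in Sen against 45100 to 62800 CPM in WT libraries, with 5 higher and 3 lower, 4 higher and 2 lower, and 3 higher and 3 lower. The libraries labelled intestinal stem cells held RNA of enterocytes in quantity. The 11 enteroendocrine markers summed to 638 to 816 CPM in OKSM-Sen, 653 to 777 in OKSM and 577 to 599 in Sen against 611 to 671 CPM in WT libraries. Of 9 visceral muscle markers 7 rose in OKSM, while 2 in OKSM-Sen and 3 in Sen were nearer to the background, and 0 fell. Their sums in OKSM-Sen, OKSM and Sen were 1300 to 1800, 1710 to 3260 and 1870 to 2180 against 1200 to 1370 CPM in WT libraries.

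The 4 Malpighian tubule markers summed to 1.79 to 242 CPM in OKSM-Sen, 129 to 275 in OKSM and 87.0 to 285 in Sen against 16.6 to 35.4 CPM in WT libraries, with 1 rising in each construct, and the 4 hemocyte markers to 6.86 to 11.1, 11.7 to 28.5 and 7.19 to 12.3 against 17.4 to 25.3 CPM in WT libraries, with 2 falling in OKSM-Sen and 2 in Sen. Ovary and egg markers summed to 1.26 to 5.96 CPM in OKSM-Sen, 3.23 to 68.6 in OKSM and 0.923 to 6.91 in Sen against 0.796 to 8.71 CPM in WT libraries, with 1 of 2 tested (Cp15) higher in OKSM. In ubiquitous Sen they summed to 2.57 to 11.1 against 0.371 to 1.87 CPM in WT libraries, with no call by edgeR and 2 of 3 under an unadjusted p of 0.05. Of the fat body list, 1 of 2 tested (Lsp1gamma) was higher in ISC OKSM, and of the neuron and glia list 1 of 5 tested (Syn) was lower in ISC OKSM and Sen. Markers of testis and male stayed at 0.22 CPM or less in every library, with Mst84Da, Mst84Db and Mst87F at 0. Fewer markers were called in the ubiquitous model, where the background was lower too. Of all genes tested there, 1.09% were called for OKSM, 2.48% for Sen and 1.16% for OKSM-Sen. Of 8 tested ISC and enteroblast markers 3 fell in Sen and 1 rose in OKSM-Sen. Of 11 enterocyte markers 2 rose in OKSM and 2 in Sen. These counts lay above that background. The part of any of these marker changes in the levels of the members was not tested.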

How the data were processed

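RNA of fly midguts was sequenced in 23 libraries, grouped by the sample labels. The authors aligned reads with STAR (version 2.7.1a) and deposited, for each gene and library, expected counts estimated by RSEM (version 1.3.1), TPM and a length weighted over transcripts. The submitters' processing notes name the build dm6. Coordinates and the lengths of single transcripts are those of BDGP6.54, in which 17587 of 17714 gene IDs were found. The study names a different release of the annotation for its alignment. Coordinates were not combined with the counts. The shares of the Myc transcripts do join the deposited weighted lengths with transcript lengths of BDGP6.54. Use of strand in counting is stated in no source used here. No sequences are printed, as none was used here.

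Expected counts were rounded. Removed were 390 genes of rRNA, snoRNA or snRNA, and those averaging below 10 reads in a model. Each model was fitted apart with edgeR (version 4.0.16, R version 4.3.3), TMM factors, glmQLFit with robust estimation and glmQLFTest, with 4 constructs sharing 1 estimate of the spread, with calls made at an FDR of 10%. CPM is the rounded count per 1000000 reads of the tested genes, scaled by the TMM factor. For the interaction, the log2 fold changes of both single constructs were subtracted from that of OKSM-Sen. A joint fit of 9602 genes gave the difference between models, ISC minus ubiquitous. Levels between genes were compared in TPM alone. Log2 CPM for likeness had a prior count of 2. The tests were checked on simulated data. The least different pair of replicates had a chi-square of 22.7 per gene, and each library was kept as a sample of its own. The alternatives were no filter, RLE size factors, DESeq2 (version 1.42.0), a fit of 2 constructs, a replicate block and leaving out each library. Leaving out the pair with exchanged annotation, and all alternatives for the interaction and the gene lists, were chosen after seeing the data.

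Named genes are the 8 members, the 3 genes most like each tested member, foxo and fkh, and of each related list the called genes where at most 4, otherwise the 4 of smallest p. Other genes are named as members of a list. The members and lists were chosen with earlier results of these data known.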

Additional observations from a re-analysis of the deposited data

Results flagged for a closer look

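Effects of the same construct that differed between the models, by a test of the difference itself (edgeR, joint fit, ISC minus ubiquitous log2 fold change against WT), were found for 4 member and construct combinations, 3 of 7 tested members in Sen and 1 of 7 in OKSM. Of all genes 27.3% were called in Sen and 4.12% in OKSM, and the count in Sen was near that background. For nub in Sen the difference was 0.74 (SE 0.19, adjusted p = 0.0117), with 3 of 3 Sen libraries above all WT libraries in the ISC model and 2 of 2 below them in the ubiquitous model. For luna in Sen it was 0.96 (SE 0.19, adjusted p = 0.00223), with the same split of the libraries. For cbt in Sen it was -1.20 (SE 0.31, adjusted p = 0.0122), with 3 of 3 Sen libraries below WT in the ISC model and an overlap with WT in the ubiquitous model, and the call was lost without ubiquitous Sen replicate 2 (-0.80, adjusted p = 0.12). For Myc in OKSM it was -0.85 (SE 0.23, adjusted p = 0.076), with 3 of 3 OKSM libraries below WT in the ISC model and an overlap in the ubiquitous model, and the call was lost without any one of 10 libraries. Model and driver, and depth with them, cannot be told apart.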

How the results depend on the processing

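Of 77 member comparisons (18 called), none changed direction with no filter, RLE factors or the replicate block, nor did the 63 run with DESeq2 and the 42 fitted with 2 constructs. Calls were gained by luna in ISC OKSM with the replicate block (0.31, adjusted p = 0.091), by pdm2 in ISC Sen (0.37, adjusted p = 0.0771) and OKSM-Sen (0.43, adjusted p = 0.0707) in the fit of 2 constructs, and by the model differences of cbt in OKSM (-0.87, adjusted p = 0.0585) and Myc in OKSM-Sen (-0.80, adjusted p = 0.0338) with DESeq2. Without the filter, dar1 in ISC Sen (-1.06, adjusted p = 0.103) and the model difference of Myc in OKSM (-0.83, adjusted p = 0.104) were lost. DESeq2 called 1 member over the 4 conditions of the ubiquitous model. Leaving out the pair with exchanged annotation gave 1 member called in ISC OKSM-Sen and 2 over the 4 ISC conditions, and turned the pdm2 interaction to 0.01. The median r of deviations from the group mean was -0.012 in the ISC and 0.087 in the ubiquitous model for same-numbered libraries. It was -0.034 and -0.044 for differently numbered ones, with overlapping ranges. Deviations within groups of so few libraries must cancel, so these values cannot exclude a batch shared by replicate number. The replicate block changed no other call of a member. Without 1 library the model differences of cbt in OKSM, pdm2 in Sen and Myc in OKSM-Sen were called at the lowest with adjusted p-values of 0.0736, 0.0798 and 0.0435. Leaving out 1 library gave 3 to 7 members called in ISC Sen and 1 to 4 in ISC OKSM-Sen.

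Signs turned for uncalled comparisons when 1 library was left out. In the ubiquitous model the ranges were, in OKSM, vvl -0.02 to 0.27, luna -0.11 to 0.04, dar1 -0.54 to 0.75 and cbt -0.05 to 0.18. In Sen they were vvl -0.22 to 0.07, dar1 -0.89 to 1.18 and cbt -0.14 to 0.60, and in OKSM-Sen nub -0.05 to 0.09, dar1 -0.43 to 0.82 and Myc -0.04 to 0.21. In ISC OKSM pdm2 ran from -0.18 to 0.23, and the model differences of Myc in Sen from -0.25 to 0.02 and of luna in OKSM-Sen from -0.05 to 0.15. The interaction ran from -1.11 to 0.97 for dar1 and -0.47 to 0.27 for cbt in the ubiquitous model, and from -0.16 to 0.25 for pdm2 in the ISC model.

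Over all genes of the ubiquitous model, edgeR called 105 for OKSM, 239 for Sen, 112 for OKSM-Sen and 252 over the 4 conditions. DESeq2 called 427, 633, 341 and 1087, the fit of 2 constructs 41, 46 and 73, the replicate block 60, 143, 64 and 153, and leaving out 1 library 37 to 115, 71 to 325, 55 to 110 and 145 to 272. In the ISC model the counts of 3028, 3417, 2719 and 3344 ran from 1890 to 3260, 2492 to 3559, 1633 to 2888 and 2098 to 3449 when 1 library was left out. The cause of these shifts was not tested. SoxN had too few counts for a test.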
